A study of Mus musculus with 12 samples.

Results

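The state of macrophages that lack p50 was compared after 4 h with lipopolysaccharide (LPS) plus interleukin 10 (IL-10) and at rest. The comparison used 4 of the 12 arrays of the series, namely the 2 arrays of p50-/-IL10-/- macrophages given LPS+IL-10 and the 2 arrays of unstimulated p50-/-IL10-/- macrophages, chosen by their labels. The cells were grown from mouse bone marrow of the 129-SvEv-Tac strain, for 5 days in medium with 30% L-cell conditioned medium and 10% serum. Stimulated cells received LPS at 1 ng/ml together with IL-10 at 0.3 ng/ml, and 6 µg of total RNA went onto each array. The other groups used below were p50-/-IL10-/- cells given 1 ng/ml LPS alone, and IL10-/- cells given LPS+IL-10, given LPS alone or left unstimulated, again with 2 arrays in each group. All 6 groups carry the Il10 knockout, the unstimulated and the IL10-/- cells included, so the only IL-10 intended in these cultures was the added cytokine. The p50-/- genotype removes the product of Nfkb1, which gives both p50 and its precursor p105. Nfkb1 was not analysed here, and the p50 genotype is taken from the labels. The labels call the 2 arrays of a group biological replicates, and nothing says how many animals or cultures stood behind them, so the p-values reflect only how far these arrays differ.

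LPS is a cell wall component of Gram-negative bacteria that macrophages sense through the receptor TLR4. The signal frees NF-kB dimers from their IkB inhibitors and also drives interferon beta, which acts back on the cells through its own receptor. p50 has a DNA-binding domain but no activation domain of its own. It activates genes as a dimer with RelA or c-Rel, and as a homodimer it can occupy kB sites and hold genes down, while p105 acts as an IkB protein and holds the kinase TPL2. IL-10 acts through STAT3 and is known for restraining inflammatory genes in macrophages. By its title the study asked how p50, p105 and IL-10 control the genes that LPS induces, and the comparison below shows where cells without p50 stood when LPS and IL-10 acted together.

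Expression is given as log2 values made by the authors with RMA, a method that corrects background, equalises the arrays' distributions and combines the probes of each set. Differences are log2 differences with their standard error (SE, n = 2 arrays in each group). The SE is the value from limma, with a spread shared over all 6 groups and not that of the compared arrays alone. A gene was called when its adjusted p from limma was under 0.05. Array medians over all probe sets lay between 6.92 and 6.96, and replicate arrays correlated at 0.992 to 0.997 across genes. The number of arrays limits the precision. The lower quartile of all values was 5.53, and a change is uncertain in size where a group lies under that level. RMA compresses such changes. The macrophage labels were checked against 9 measured defining markers, whose mean was 11.88 and 12.00 on the LPS+IL-10 arrays and 12.04 and 11.90 on the unstimulated arrays. Csf1r, the receptor for the macrophage growth factor M-CSF, read 13.43 and 13.51 after LPS+IL-10 and 13.65 and 13.53 at rest, and the lysozyme gene Lyz2 read 14.05 and 13.98 after LPS+IL-10 and 14.06 and 14.07 at rest. Csf1r and Lyz2 were bright in both groups. Of the 9 markers, 2 were called higher, 1 lower and 6 not, with changes from -1.42 (Mertk) to 0.92 (Spi1).

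LPS+IL-10 moved a large share of the genes in cells without p50. Of 12393 genes, 2070 were called higher (16.7%) and 2633 lower (21.2%), against 860 higher (6.94%) and 1551 lower (12.5%) in IL10-/- cells. Changes of at least 2-fold among the called genes were far fewer, at 367 higher (2.96%) and 342 lower (2.76%) in p50-/-IL10-/- cells, and 229 higher (1.85%) and 206 lower (1.66%) in IL10-/- cells. The split of the small changes depended on scale. With each array centred on its median, 3280 genes were called higher and 2215 lower, so the share of higher calls went to 59.7%, against 44.0% as deposited. In IL10-/- cells the same centring gave 1247 higher and 1159 lower calls, a share of 51.8% against 35.7% as deposited. The 4703 calls became 2909 without array 2 of the LPS+IL-10 cells and 3035 without array 2 of the unstimulated cells. The 2411 calls of IL10-/- cells became 1482 without array 1 of their LPS+IL-10 group and 1469 without array 2 of their unstimulated group.

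Dim genes shifted upward together in cells without p50. Among the 3099 genes with the lowest mean levels (up to 5.87), 438 were called higher and 103 lower, with a median change of 0.13, against 16 higher and 68 lower and a median of 0.03 in IL10-/- cells. After quantile normalization these genes held 99 higher and 158 lower calls. The lower quartile of the genes was 5.94 and 5.92 on the p50-/-IL10-/- LPS+IL-10 arrays, against 5.80 and 5.81 on the unstimulated arrays. Of the changes of at least 2-fold, 9 increases and 14 decreases were in these genes. Genes are therefore described below mainly by changes well above this shift.

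**Figure D1:**
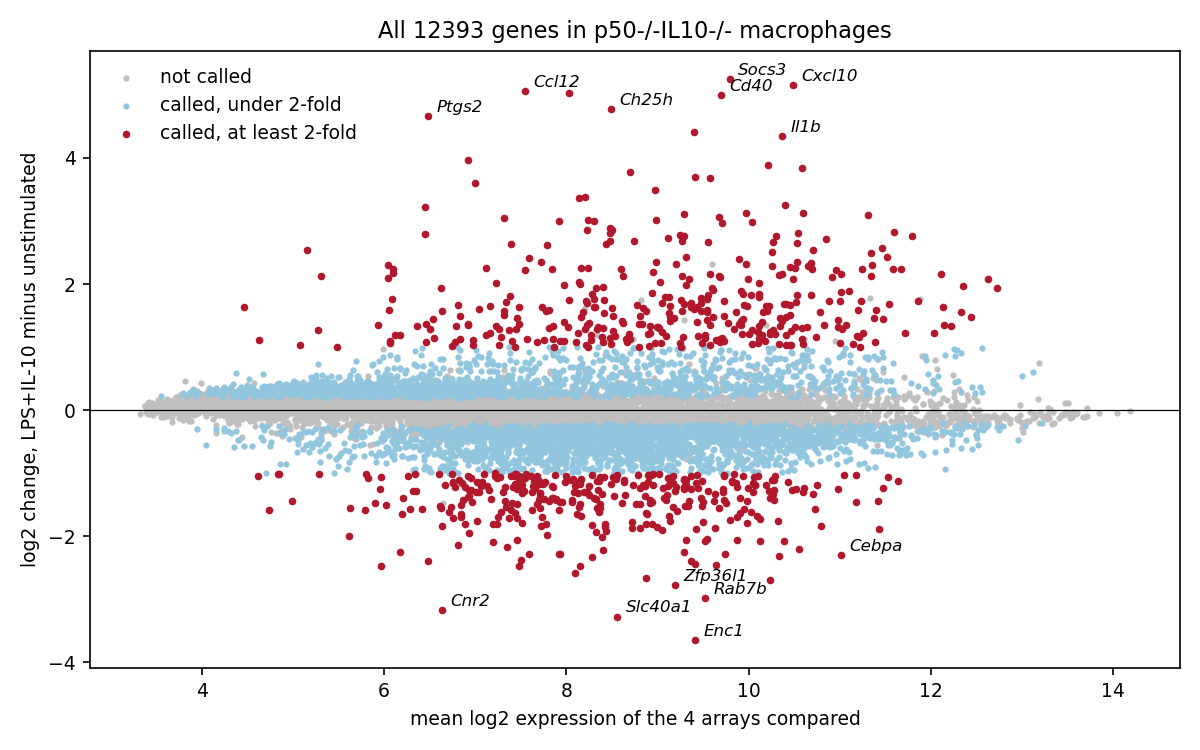
Log2 change of each of 12393 genes (LPS+IL-10 minus unstimulated, vertical axis) against the mean log2 expression of the 4 p50-/-IL10-/- arrays compared (horizontal axis). Red points are the 367 higher and 342 lower genes that were called and changed at least 2-fold, blue points are smaller called changes and grey points were not called. Increases reach 5.25 log2 and decreases -3.64.

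The largest increases included a feedback inhibitor of cytokine signals, chemokines, co-stimulatory proteins and enzymes of lipid mediators. Socs3 (gene ID 12702), the feedback inhibitor of receptors that signal through STAT3, read 12.40 and 12.45 after LPS+IL-10, 11.06 and 11.01 after LPS alone and 7.08 and 7.25 at rest. It stood highest with both agents and rose 38.1-fold over rest, by 5.25 ± 0.08 (adjusted p 8.08e-11). Cxcl10 (gene ID 15945), a chemokine that draws activated T cells, read 13.09 and 13.03 after LPS+IL-10, 13.61 and 13.58 after LPS alone and 8.22 and 7.60 at rest, an increase of 5.15 ± 0.36 over rest. Cd40 (gene ID 21939), the co-stimulatory receptor for CD40 ligand, read 12.16 and 12.24 after LPS+IL-10, 12.42 and 12.03 after LPS alone and 7.17 and 7.24 at rest, a rise of 31.9-fold. Its LPS+IL-10 and LPS arrays overlapped, and both groups lay far above rest.

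Ch25h makes the antiviral oxysterol 25-hydroxycholesterol and read 10.65 and 11.11 after LPS+IL-10 against 6.32 and 5.90 at rest, higher by 4.78 ± 0.38. Ptgs2, the cyclooxygenase of inflammatory prostaglandin synthesis, read 8.91 and 8.72 after LPS+IL-10, 7.29 and 6.59 after LPS alone and 4.21 and 4.11 at rest. It rose by 4.66 ± 0.18 over rest, where it was dim, and its other probe set gave 1.64. The groups did not overlap, and LPS+IL-10 stood above LPS alone by 1.88 ± 0.18 (adjusted p 0.000322). Gja1, a gap junction protein of the connexin family, rose by 5.02 ± 0.21 (10.42 and 10.65 after LPS+IL-10 against a dim 5.63 and 5.40 at rest), while its 6 probe sets ranged from 1.24 to 5.02. Tnfsf9, the 4-1BB ligand that co-stimulates T cells, rose by 4.41 ± 0.17, the interleukin gene Il1b by 4.35 ± 0.26 and Fpr2, a receptor for formyl peptides, by 3.83 ± 0.32. The chemokines Ccl12 and Ccl4 rose by 5.07 ± 0.52 and 3.89 ± 0.28, Ccl12 out of a dim resting level of 5.10 and 4.92. Gfi1, a transcriptional repressor known from granulocyte development, read 8.78 and 9.03 after LPS+IL-10 against a dim 4.85 and 5.03 at rest. It was higher by 3.96 ± 0.19, a size that is uncertain. These 12 genes were chosen as the largest increases among genes without overlap of the compared arrays and called in all 4 fits that left out 1 array. Their calls in those fits therefore follow from the choice.

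The largest decreases included an actin-associated protein, an iron exporter and regulators of mRNA decay and translation. Enc1, an actin-associated protein, read 7.63 and 7.56 after LPS+IL-10, 8.05 and 7.98 after LPS alone and 11.18 and 11.29 at rest, lower by 12.5-fold and changed by -3.64 ± 0.10, although another of its 3 probe sets gave -0.19. Slc40a1 is ferroportin, which exports iron from macrophages. It read 7.0 and 6.85 after LPS+IL-10, 7.19 and 7.62 after LPS alone and 10.41 and 9.98 at rest, a change of -3.27 ± 0.21. Both stimulated groups lay below rest for these genes, without overlap. Cnr2, the cannabinoid receptor of immune cells, changed by -3.17 ± 0.20 to a dim 5.12 and 4.97 with LPS+IL-10, against 8.28 and 8.16 at rest. Rab7b, a small GTPase of late endosomes, changed by -2.98 ± 0.12, and Zfp36l1, a relative of tristetraprolin that promotes mRNA decay, by -2.78 ± 0.19.

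Mknk2, a kinase that phosphorylates the translation factor eIF4E, changed by -2.69 ± 0.16, and Tsc22d3, the glucocorticoid-induced leucine zipper, by -2.66 ± 0.13. Other probe sets of Mknk2 and Tsc22d3 gave smaller changes, of -1.13 and -0.13. Pdcd4, an inhibitor of translation, changed by -2.48 ± 0.17, Gmnn (geminin, which restrains DNA re-replication) by -2.47 ± 0.17 and the stress-response gene Sesn1 by -2.45 ± 0.14. Bbip1, a part of the BBSome of the cilium, changed by -2.58 ± 0.11. The kinase gene Sbk1 changed by -2.47 ± 0.19 to a dim 4.87 and 4.60 with LPS+IL-10, against 7.21 and 7.2 at rest, and its other probe set gave -0.59. These 12 decreases were chosen by the same rule, so their calls in the 4 fits without 1 array also follow from the choice.

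**Figure D2:**
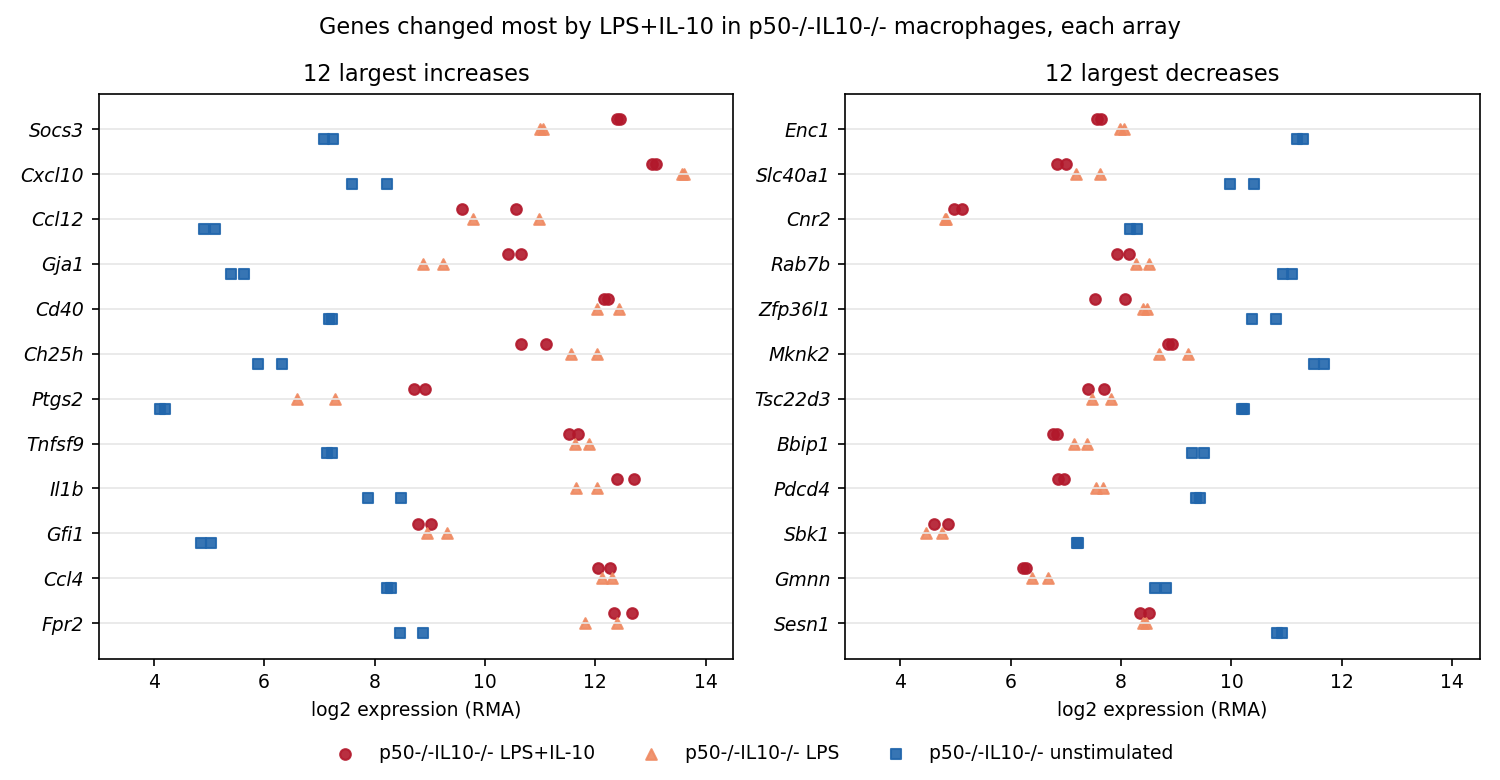
Log2 expression (horizontal axis) on each p50-/-IL10-/- array for the 12 largest increases (left) and 12 largest decreases (right) of LPS+IL-10 over unstimulated cells, with arrays of LPS alone between them. Red circles are LPS+IL-10, orange triangles LPS alone and blue squares unstimulated cells, 2 arrays each. The 24 genes were chosen so that their LPS+IL-10 and unstimulated arrays do not overlap. Socs3 and Ptgs2 lie highest with LPS+IL-10.

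Most NF-kB subunits and feedback inhibitors rose in cells without p50. This list and those below were written with earlier results of these data known, so their counts only describe the listed genes. All list counts stand beside 16.7% higher and 21.2% lower among all genes in p50-/-IL10-/- cells. In IL10-/- cells these shares were 6.94% and 12.5%, so calls were fewer there in general. Of 19 measured genes, 16 rose, 1 fell and 2 were not called, with a median change of 1.63 against 0.05 over all genes, and in IL10-/- cells 17 rose and 1 fell with a median of 1.01. Nfkbie, the inhibitor IkB epsilon, read 9.76 and 9.84 after LPS+IL-10, 10.36 and 10.29 after LPS alone and 6.97 and 6.65 at rest, higher by 2.99 ± 0.13. Its increase was larger than the 1.57 ± 0.13 in IL10-/- cells by 1.42 ± 0.18 (adjusted p 0.00457, called in 8 of 8 fits without 1 array). Traf1, an adaptor of TNF receptors, rose by 2.64 ± 0.12 and Tnfaip3, the ubiquitin-editing inhibitor A20, by 2.20 ± 0.17. Among the subunits themselves, Relb rose by 2.01 ± 0.10, Nfkb2 by 1.64 ± 0.09 (0.71 by its other probe set), Rela by 0.84 ± 0.07 and Rel (c-Rel) by 0.85 ± 0.17. Rel read 7.43 and 7.48 after LPS+IL-10, 8.94 and 8.50 after LPS alone and 6.56 and 6.65 at rest, so it stood between rest and LPS alone. Bcl3, an IkB-like protein that binds p50 and p52 homodimers, went the other way between the stimuli. It read 10.81 and 10.69 after LPS+IL-10, 8.86 and 8.88 after LPS alone and 8.51 and 8.76 at rest, higher than LPS alone by 1.88 ± 0.15. Nfkbia, the main IkB, rose by 0.61 ± 0.07 (13.42 and 13.43 after LPS+IL-10, 12.82 and 12.81 at rest), and Ikbkg, the scaffold of the IkB kinase, fell by 1.37-fold, although its probe sets disagreed in sign, the highest giving 0.30.

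The promoter of Nfkbie is shown because this inhibitor changed most among the NF-kB list and its window holds a kB match. The window runs from 250 bases before to 50 after the start given by RefSeq (GRCm38.p6, chr17:45555450-45555749, plus strand), printed 5′ to 3′ with the match in capitals.
Nfkbie: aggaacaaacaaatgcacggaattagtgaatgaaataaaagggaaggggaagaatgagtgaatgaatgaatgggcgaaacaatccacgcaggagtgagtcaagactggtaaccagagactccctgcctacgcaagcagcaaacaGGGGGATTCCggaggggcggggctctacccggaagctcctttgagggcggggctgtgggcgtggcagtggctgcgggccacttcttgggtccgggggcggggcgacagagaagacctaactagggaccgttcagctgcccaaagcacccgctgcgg
The kB consensus, searched on both strands, was present in 18.1% of the 299 genes with a promoter window among those at least 2-fold higher, in 12.4% of 275 among those at least 2-fold lower, and in 12.0% of the 9882 genes with a window among all those tested. Of the NF-kB list, 7 of 16 genes with a window held it. A match describes letters in this window and not binding.

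Inflammatory cytokine genes split between high and near-resting levels. Of 19 measured, 13 rose, 0 fell and 6 were not called (median 1.27), whereas in IL10-/- cells 6 rose and 13 were not called (median 0.17). Tnf read 12.15 and 12.17 after LPS+IL-10, 12.50 and 12.54 after LPS alone and 8.86 and 9.21 at rest, higher than rest by 3.12 ± 0.11. The difference from LPS alone was -0.36 ± 0.11 and was not called (adjusted p 0.0856). Il12b, the p40 subunit of interleukins 12 and 23, read 8.72 and 8.88 after LPS+IL-10, 12.25 and 11.88 after LPS alone and 4.81 and 5.59 at rest. It thus stood 12.1-fold above its resting level, which was dim, so that the size is uncertain, and differed from LPS alone by -3.27 ± 0.21 (adjusted p 2.73e-05). Of all genes, 3.7% were called higher and 2.87% lower in that comparison of LPS+IL-10 with LPS, 814 genes together, or 270 to 479 with any 1 of its 4 arrays left out (270 without array 1 of the LPS cells). The split of these calls also depended on scale, at 458 higher and 356 lower as deposited, and at 277 higher and 520 lower with each array centred on its median.

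Il6, the pyrogenic cytokine, lay in the same order, at 6.38 and 6.47 after LPS+IL-10, 10.11 and 9.76 after LPS alone and a dim 3.96 and 3.80 at rest. It rose by 2.55 ± 0.33 over rest and differed from LPS alone by -3.51 ± 0.33. Il1a rose by 2.40 ± 0.19, Ebi3 (a subunit of interleukins 27 and 35) by 2.17 ± 0.14 and Csf1, which codes for M-CSF, by 1.35 ± 0.13, with 0.30 by another probe set. Ifnb1, interferon beta, read 6.40 and 6.62 after LPS+IL-10, 8.14 and 7.68 after LPS alone and 5.77 and 5.92 at rest. It rose by 0.67 ± 0.18 over rest, a call kept in 2 of 4 fits without 1 array (highest adjusted p 0.11), and differed from LPS alone by -1.40 ± 0.18. The Il10 probe set read 7.98 and 8.04 after LPS+IL-10 and 6.94 and 6.54 at rest, higher by 1.27 ± 0.16, in cells that carry the knockout. The sources used here do not place its probes relative to the deletion, so it checks nothing. Il12a (0.15 ± 0.15), Il23a (0.21 ± 0.08), Il18 (0.51 ± 0.19), Csf2 (0.09 ± 0.19) and Lif (0.06 ± 0.08) were not called.

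Chemokine genes reached some of the highest changes. Of 17 measured, 11 rose, 1 fell and 5 were not called (median 2.76), against 12 higher, 0 lower and 5 not called in IL10-/- cells (median 1.62). Ccl2, which recruits monocytes, read 9.85 and 9.95 after LPS+IL-10, 11.19 and 10.87 after LPS alone and 6.31 and 6.71 at rest, higher than rest by 3.39 ± 0.17 and different from LPS alone by -1.14 ± 0.17. Cxcl1 and Cxcl2, which draw neutrophils, rose over rest by 2.02 ± 0.26 and 2.96 ± 0.11, and differed from LPS alone by -1.96 ± 0.26 and -1.02 ± 0.11, both called. Cxcl9, an interferon gamma target, read 9.43 and 10.21 after LPS+IL-10, 12.33 and 11.86 after LPS alone and 6.50 and 6.42 at rest. It therefore lay between rest and LPS alone. The macrophage inflammatory proteins Ccl3 and Ccl4 lay -0.34 and -0.05 from LPS alone, and neither was called there. Ccl7 rose by 3.05 ± 0.34 and Ccl6 fell by 1.32-fold. Ccl5, which draws T cells and monocytes, read 13.16 and 13.23 after LPS+IL-10 and 11.11 and 10.96 at rest and rose by 2.16 ± 0.63, a call that ended in each of the 4 fits without 1 array (highest adjusted p 0.0967). Ccl17 and Ccl22, chemokines of alternatively activated macrophages, were not called (0.16 ± 0.11 and 0.23 ± 0.09).

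Cxcl10 is shown because it rose most among the chemokines and its window holds both a kB and an interferon element. The sequence is the minus strand of chr5:92348840-92349139 (RefSeq, GRCm38.p6), with matches in capitals.
Cxcl10: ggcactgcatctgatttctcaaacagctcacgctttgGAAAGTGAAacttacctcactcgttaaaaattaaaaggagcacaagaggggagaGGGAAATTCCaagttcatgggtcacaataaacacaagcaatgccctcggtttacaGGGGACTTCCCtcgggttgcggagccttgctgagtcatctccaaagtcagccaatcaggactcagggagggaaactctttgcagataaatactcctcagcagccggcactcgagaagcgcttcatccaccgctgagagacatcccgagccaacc
The capitals mark, from the 5′ end, an interferon element core at -213 (GAAAGTGAA), a kB match at -159 (GGGAAATTCC) and overlapping kB matches at -104 and -103. Of the 10 chemokine genes with a window, 4 held a kB match and 3 the interferon core GAAANNGAA.

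Genes known from the IL-10 and STAT3 response mostly rose. Of 20 measured, 14 rose, 1 fell and 5 were not called, with a median of 1.30, and in IL10-/- cells 15 rose and 2 fell with a median of 1.01. Slc39a14, a zinc and iron transporter, read 10.11 and 10.06 after LPS+IL-10, 7.63 and 7.75 after LPS alone and 7.29 and 7.53 at rest, higher than rest by 2.67 ± 0.14 and than LPS alone by 2.40 ± 0.14, whereas its other probe set gave 0.49 over rest. Mt2, a metallothionein, read 10.64 and 10.42 after LPS+IL-10, 8.11 and 7.61 after LPS alone and 7.67 and 8.53 at rest, higher than rest by 2.43 ± 0.41. Both genes stood high with the 2 agents together, while their LPS arrays lay close to rest. Stat3 read 11.81 and 11.74 after LPS+IL-10, 10.94 and 10.69 after LPS alone and 10.59 and 10.60 at rest, a rise of 1.18 ± 0.10 over rest (0.49 by the probe set that moved least).

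Il4ra, the interleukin 4 receptor, read 10.51 and 10.73 after LPS+IL-10, 8.06 and 8.46 after LPS alone and 9.21 and 9.21 at rest. LPS alone lay below rest and LPS+IL-10 above it, by 1.41 ± 0.13 (0.55 by its other probe set). Il1rn, the interleukin 1 receptor antagonist, rose by 2.35 ± 0.16 and Ddit4, an inhibitor of mTORC1, by 2.18 ± 0.28 out of a dim resting level. Nfil3 and Etv3, repressors that IL-10 is known to induce, rose by 1.75 ± 0.14 and 0.80 ± 0.11. Il10ra, the ligand-binding chain of the IL-10 receptor, was not called against rest (-0.16 ± 0.12) and lay -0.91 ± 0.12 from LPS alone, while the shared chain Il10rb fell (-0.49 ± 0.09). Hmox1, the haem-degrading enzyme, was not called (0.16 ± 0.31, with 10.58 and 10.77 after LPS+IL-10 and 10.91 and 10.13 at rest). In IL10-/- cells it rose by 1.56 ± 0.31 (adjusted p 0.00475), and the difference between the genotypes, -1.40 ± 0.44, was not called (adjusted p 0.13).

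Among 14 SOCS genes and other inhibitors of cytokine signals, 8 rose, 2 fell and 4 were not called (median 0.36), against 5 higher and 2 lower in IL10-/- cells. The shares over all genes were 16.7% higher and 21.2% lower without p50, and 6.94% and 12.5% in IL10-/- cells. Socs1, which restrains interferon signals, read 8.75 and 9.05 after LPS+IL-10, 10.68 and 10.37 after LPS alone and 6.52 and 6.59 at rest. It rose by 2.34 ± 0.38 over rest and differed from LPS alone by -1.62 ± 0.38. Cish rose by 1.00 ± 0.14, and Socs6 fell by 3.42-fold (7.75 and 7.92 after LPS+IL-10, 9.47 and 9.75 at rest). Socs1 and Socs3 thus differed in order, Socs3 highest with LPS+IL-10 and Socs1 highest with LPS alone.

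Antiviral interferon-stimulated genes stood high after LPS+IL-10 in cells without p50. Of 34 measured, 22 rose, 0 fell and 12 were not called, with a median of 1.72. Their mean level was 11.26 and 11.43 on the LPS+IL-10 arrays, 11.79 and 11.61 on the LPS arrays, and 9.86 and 9.61 on the unstimulated arrays. In IL10-/- cells 4 rose, 1 fell and 29 were not called, with a median of 0.75, and the mean level was 9.90 and 8.63 with LPS+IL-10, 11.27 and 10.53 with LPS, and 9.17 and 7.91 at rest. Array 1 lay above array 2 in all 3 IL10-/- groups on this list, and this spread enters the SE of both genotypes. With the replicate number as a block within each genotype, 28 of the 34 genes were called higher in p50-/-IL10-/- cells and 25 in IL10-/- cells, so the gap between 22 and 4 calls rests on how this spread is treated. With 1 array left out the counts were 15 to 19 in p50-/-IL10-/- cells and 3 to 15 in IL10-/- cells, the highest without array 1 of the unstimulated IL10-/- cells.

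Oasl1, a regulator of antiviral translation, read 11.84 and 12.21 after LPS+IL-10, 12.56 and 12.33 after LPS alone and 8.96 and 8.57 at rest, higher than rest by 3.26 ± 0.58. Mx1, a GTPase that blocks influenza virus, rose by 3.12 ± 0.77 and Ifit1, which binds foreign RNA caps, by 3.10 ± 0.48. The call of Mx1 ended without array 2 of the LPS+IL-10 cells (adjusted p 0.059) or of the unstimulated cells (adjusted p 0.067). Usp18, which removes ISG15 and damps the interferon receptor, rose by 2.81 ± 0.57, Rsad2 (viperin) by 2.08 ± 0.45 and Daxx by 2.5 ± 0.23. Differences from LPS alone for these 6 genes ran between -0.68 (Mx1) and -0.18 (Daxx), and none was called. Some members stood high already at rest and were not called. Irf7, the interferon amplifier, read 11.74 and 12.04 after LPS+IL-10 and 11.76 and 11.47 at rest (0.28 ± 0.73), and Oas3 read 11.14 and 11.38 after LPS+IL-10 and 11.06 and 11.01 at rest (0.23 ± 0.87). At rest IL10-/- cells had 10.01 and 7.85 for Irf7 and 9.92 and 7.29 for Oas3.

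Ifit1 is shown as an interferon-stimulated gene with a known promoter element, 3 cores of which lie in its window, on the strand opposite to the one printed, at -109 and -103, which overlap, and at -84 (plus strand of chr19:34640639-34640938, RefSeq, GRCm38.p6).
Ifit1: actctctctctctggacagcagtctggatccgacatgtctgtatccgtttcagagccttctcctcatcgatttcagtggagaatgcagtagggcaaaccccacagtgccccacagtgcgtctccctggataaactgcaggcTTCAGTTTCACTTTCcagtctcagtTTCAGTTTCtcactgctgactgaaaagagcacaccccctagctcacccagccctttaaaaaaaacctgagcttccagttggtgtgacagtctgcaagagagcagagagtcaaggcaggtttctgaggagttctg
The core GAAANNGAA, on either strand, was found in 17.1% of genes at least 2-fold higher that had a window, in 7.64% of those at least 2-fold lower and in 8.63% of all genes with one. Of 23 interferon-stimulated genes with a window, 11 held it. The STAT element TTCCNGGAA was found in 3.01%, 1.45% and 1.35% of the same 3 sets, the cAMP element TGACGTCA in 3.01%, 2.55% and 3.0%, and TATAAA in 15.4%, 8.73% and 11.9%.

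Most guanylate-binding proteins and interferon gamma targets rose. All of the 13 measured were called in p50-/-IL10-/- cells, 12 higher and 1 lower (median 2.25). In IL10-/- cells 7 were called higher, 0 lower and 6 not called (median 0.90). Array 1 again lay above array 2 in IL10-/- cells, with list means of 9.45 and 8.93 after LPS+IL-10 and 8.46 and 7.76 at rest. With the replicate number as a block within each genotype, 9 were called higher and 1 lower in IL10-/- cells, so the gap depends on how this spread is treated. Iigp1, an immunity-related GTPase, read 11.00 and 11.84 after LPS+IL-10, 12.64 and 12.29 after LPS alone and 8.14 and 7.32 at rest, higher than rest by 3.68 ± 0.85. Without array 2 of the LPS+IL-10 or of the unstimulated group that call ended (adjusted p 0.057 and 0.056). Gbp6 rose by 3.02 ± 0.55 and Igtp by 2.67 ± 0.36. Irf1, the interferon regulatory factor that LPS induces through NF-kB, read 12.69 and 12.73 after LPS+IL-10 and 10.52 and 10.42 at rest, higher by 2.24 ± 0.07, whereas its increase in IL10-/- cells was 0.86 ± 0.07. The increase was larger without p50 by 1.38 ± 0.10 (adjusted p 0.000304, called in 8 of 8 fits without 1 array). Irf8, a myeloid lineage factor, was the member called lower (-0.50 ± 0.17), which ended in each of the 4 fits without 1 array (highest adjusted p 0.16).

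Irgm2, a GTPase of the same family, is shown because its increase differed between the genotypes and its window holds a STAT element beside an interferon core (plus strand of chr11:58214727-58215026, RefSeq, GRCm38.p6).
Irgm2: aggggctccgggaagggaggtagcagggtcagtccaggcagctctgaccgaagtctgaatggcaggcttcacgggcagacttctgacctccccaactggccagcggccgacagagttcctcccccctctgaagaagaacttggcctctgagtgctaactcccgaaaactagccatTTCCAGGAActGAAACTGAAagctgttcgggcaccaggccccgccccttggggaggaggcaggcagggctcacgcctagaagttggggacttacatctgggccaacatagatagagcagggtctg
Capitals mark the STAT match at -75 (TTCCAGGAA) and the interferon core at -64 (GAAACTGAA). Irgm2 read 11.52 and 11.53 after LPS+IL-10 and 8.69 and 8.40 at rest in cells without p50, and 9.35 and 8.39 after LPS+IL-10 and 8.43 and 7.51 at rest in IL10-/- cells. The increase was 2.98 ± 0.32 in p50-/-IL10-/- cells and 0.90 ± 0.32 in IL10-/- cells, and the difference of 2.08 ± 0.46 had an adjusted p of 0.0456, which held in 2 of 8 fits without 1 array.

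In the class I antigen loading list 4 of 15 genes rose, 1 fell and 10 were not called (median 0.14), against 16.7% higher and 21.2% lower among all genes, and Tap1 and Tap2, the peptide transporter, rose by 1.83 ± 0.33 and 1.32 ± 0.17. The 4 probe sets of Tap1 ranged from 0.00 to 1.83. H2-K1, H2-D1 and B2m stood near the top of the scale at rest (13.45, 13.41 and 13.62) and were not called. In the class II list 2 of 10 rose and 1 fell (median 0.28), or 5 and 1 when only the compared arrays were fitted. Ciita, the class II activator, rose by 0.91 ± 0.13, while H2-Aa (0.21 ± 0.38) and Cd74 (0.55 ± 0.39) were not called. Ifi30, the thiol reductase of antigen processing, fell (-0.65 ± 0.09).

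Co-stimulation and adhesion genes rose in 10 of 17 cases and fell in 1 (median 0.90), against 7 and 0 in IL10-/- cells. Besides Cd40, Icosl, the ligand of ICOS, rose by 2.76 ± 0.15 (0.31 by its other probe set) and the adhesion ligand Icam1 by 2.43 ± 0.13. Slamf1, a receptor of T cells and phagocytes, read 8.73 and 9.18 after LPS+IL-10, 7.0 and 6.87 after LPS alone and 6.75 and 6.70 at rest, a rise of 2.23 ± 0.15, with the LPS arrays close to rest. Another probe set of Slamf1 gave 1.05. Cd274, the checkpoint ligand PD-L1, rose by 2.25 ± 0.19. Cd86 and Cd80, the ligands of CD28, were not called (-0.07 ± 0.17 and -0.32 ± 0.12).

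Toll-like receptors and their adaptors moved both ways, with 8 of 20 higher, 3 lower and 9 not called (median 0.09). The shares over all genes were 16.7% higher and 21.2% lower. Tlr2, which senses lipoproteins, rose by 1.34 ± 0.08, and Myd88, the shared adaptor, by 1.59 ± 0.10. Tlr3, a sensor of double-stranded RNA, rose by 1.70 ± 0.23, against 0.20 ± 0.23 in IL10-/- cells, and the difference of 1.5 ± 0.33 was called (adjusted p 0.0468, held in 0 of 8 fits without 1 array). Tlr4 itself fell by 1.88-fold (7.87 and 7.96 after LPS+IL-10, 8.88 and 8.76 at rest), and its partner Cd14 rose by 0.54 ± 0.08.

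Of 22 enzymes of microbe killing and lipid mediators, 11 rose, 3 fell and 8 were not called (median 0.61), against 15 higher and 1 lower in IL10-/- cells (median 0.78). Ptges, the prostaglandin E synthase that works with Ptgs2, read 10.57 and 10.86 after LPS+IL-10, 9.91 and 9.55 after LPS alone and 7.08 and 7.37 at rest. It rose by 3.49 ± 0.18 over rest and by 0.99 ± 0.18 over LPS alone, in the same order as Ptgs2. Nos2, which makes nitric oxide, rose by 1.57 ± 0.18 (7.24 and 7.61 after LPS+IL-10, 5.68 and 6.03 at rest), and Gch1, which supplies its cofactor, by 2.08 ± 0.09. Acod1, the itaconate enzyme, rose by 1.94 ± 0.27 out of a resting level of 11.69 and 11.81. Arg2 read 9.43 and 9.10 after LPS+IL-10, 7.64 and 8.04 after LPS alone and 7.72 and 7.81 at rest, so the LPS+IL-10 arrays stood highest, by 1.5 ± 0.17 over rest. Arg1 was dim (4.20 and 4.28 after LPS+IL-10 and 4.29 and 4.11 at rest) and was not called. Saa3 was bright at rest (12.87 and 12.74) and was not called (0.75 ± 0.34), while Hpgds, a prostaglandin D synthase, fell by 1.95-fold.

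MAP kinase phosphatases and mRNA decay factors were split, with 5 of 12 higher, 6 lower and 1 not called and a median of -0.40, against 6 higher and 3 lower with a median of 0.21 in IL10-/- cells. All genes had shares of 16.7% higher and 21.2% lower without p50, and 6.94% and 12.5% in IL10-/- cells. Dusp2, which acts on ERK and p38, read 9.90 and 9.96 after LPS+IL-10 and 7.12 and 6.96 at rest, higher by 2.89 ± 0.16, and Dusp16, which acts on JNK, rose by 1.98 ± 0.09. Dusp6, a phosphatase of ERK that ERK itself induces, read 5.69 and 5.79 after LPS+IL-10, 5.89 and 5.73 after LPS alone and 7.92 and 7.83 at rest, a change of -2.13 ± 0.12. Dusp1 read 9.19 and 9.05 after LPS+IL-10, 8.12 and 8.15 after LPS alone and 9.92 and 10.16 at rest. It lay below rest by a factor of 1.9 and above LPS alone by 0.98 ± 0.12. Zfp36 (tristetraprolin) rose by 0.88 ± 0.12 and Zc3h12a (regnase-1) by 1.19 ± 0.08, whereas Zfp36l1 and Zfp36l2 changed by -2.78 ± 0.19 and -1.24 ± 0.13, with -0.02 by another probe set of Zfp36l2. The 3 members of the tristetraprolin family therefore did not move in one direction.

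Among 22 immediate early and AP-1 factors, 9 rose, 4 fell and 9 were not called (median 0.23), with 16.7% of all genes higher and 21.2% lower. Fos read 8.19 and 8.01 after LPS+IL-10, 6.91 and 7.08 after LPS alone and 9.91 and 10.07 at rest, a change of -1.90 ± 0.23 against rest. Junb rose by 1.89 ± 0.15 and Maff by 1.64 ± 0.17, while Jun (-0.92 ± 0.13) and Ier5 (-0.74 ± 0.10, or -0.09 by its other probe set) fell. Batf and Ier3 stood above both rest and LPS alone. Batf rose by 1.63 ± 0.12 over rest and 1.44 ± 0.12 over LPS alone, and Ier3 by 1.27 ± 0.15 and 1.94 ± 0.15.

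Of 24 efferocytosis, scavenger and complement genes, 4 rose, 6 fell and 14 were not called (median -0.06), with 16.7% of all genes higher and 21.2% lower. Mertk, a receptor for apoptotic cells, read 8.75 and 9.28 after LPS+IL-10, 10.17 and 9.74 after LPS alone and 10.43 and 10.44 at rest, lower by 2.67-fold, and Itgb5, an integrin of apoptotic cell uptake, fell by 2.75-fold. Clec4e, the sensor Mincle, rose by 1.48 ± 0.08 and the inhibitory Fc receptor Fcgr2b by 1.35 ± 0.12. Cfb, complement factor B, rose by 1.56 ± 0.45, a call that ended without array 1 or 2 of the unstimulated cells or array 2 of the LPS+IL-10 cells (highest adjusted p 0.12). C1qa, C1qb and C1qc were not called, with changes between -0.19 (C1qa) and -0.06 (C1qb).

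Surface G-protein receptors rose in 8 of 20 cases, fell in 7 and were not called in 5 (median -0.32). Across all genes the shares were 16.7% higher and 21.2% lower. Gpr84, a receptor for medium-chain fatty acids, rose by 2.83 ± 0.22 and Ccrl2, an atypical chemokine receptor, by 2.71 ± 0.11. Cxcr4 read 10.79 and 10.19 after LPS+IL-10, 8.90 and 9.27 after LPS alone and 12.35 and 12.38 at rest, between the other groups, and changed by -1.88 ± 0.19 against rest. The prostaglandin E receptors parted, with Ptger2 changing by -1.04 ± 0.21 and Ptger4 by 0.94 ± 0.18, each called.

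Of 21 macrophage identity genes, 8 rose, 2 fell and 11 were not called (median 0.16), and in IL10-/- cells 8 rose and 1 fell. Among all genes 16.7% were called higher and 21.2% lower in p50-/-IL10-/- cells. Cebpa, a myeloid differentiation factor, read 10.10 and 9.62 after LPS+IL-10, 8.22 and 8.65 after LPS alone and 12.07 and 12.24 at rest, lower than rest by 4.92-fold and above LPS alone by 1.42 ± 0.18. Cebpd and Cebpb rose by 1.56 ± 0.12 and 1.23 ± 0.12 (0.52 by another probe set of Cebpd), and Tfec, a relative of Mitf, by 2.51 ± 0.18. Spi1, which codes for PU.1, rose by 0.92 ± 0.09, while Adgre1 (F4/80) and Cd68 were not called (-0.25 ± 0.10 and -0.21 ± 0.08).

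**Figure D3:**
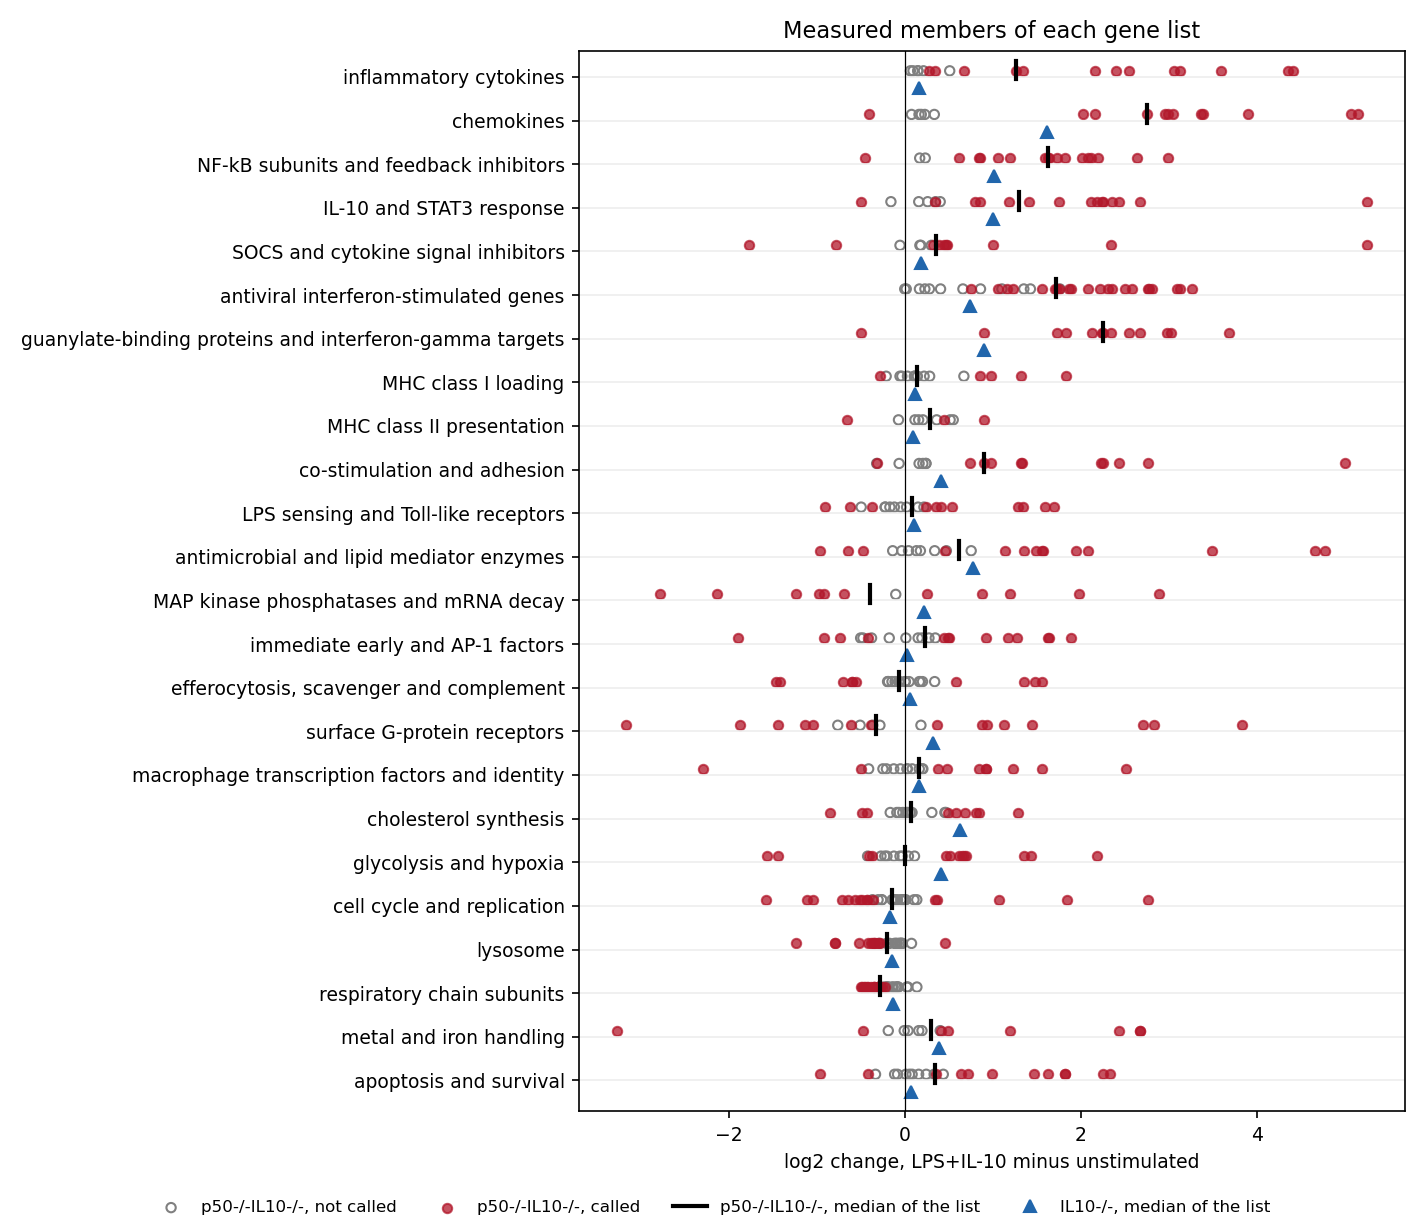
Log2 change (LPS+IL-10 minus unstimulated, horizontal axis) of each measured member of 24 gene lists in p50-/-IL10-/- cells, filled red where called and open grey where not. Black bars are list medians in p50-/-IL10-/- cells and blue triangles the medians in IL10-/- cells, such as 2.76 and 1.62 for chemokines and -0.40 and 0.21 for MAP kinase phosphatases and mRNA decay factors.

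The glycolysis and hypoxia list and the cholesterol synthesis list had medians near 0 in cells without p50. Of 22 glycolysis and hypoxia genes, 9 rose, 4 fell and 9 were not called, with a median of 0.01, against 14 higher, 1 lower and a median of 0.41 in IL10-/- cells. Hexokinase 2 (Hk2) rose by 1.36 ± 0.10 and the glucose transporter Slc2a1 by 1.43 ± 0.12, while Vegfa and Eno2 changed by -1.44 ± 0.15 and -1.57 ± 0.18. Eno2 was dim after LPS+IL-10, and the highest probe set of Vegfa gave -0.15. The change was lower without p50, as called by the test of the difference between the genotypes, for 6 of the list's genes and higher for 0 (1.02% and 1.18% of all genes). Pfkl, a phosphofructokinase, rose by 0.51 ± 0.09 in p50-/-IL10-/- cells and by 1.31 ± 0.09 in IL10-/- cells (difference -0.81 ± 0.12, adjusted p 0.00837). Slc16a3, the lactate exporter, rose by 0.67 ± 0.10 in p50-/-IL10-/- cells and 1.76 ± 0.10 in IL10-/- cells (difference -1.09 ± 0.15, adjusted p 0.00566). Bnip3, a hypoxia-induced mitophagy receptor, changed by -0.37 ± 0.12 in p50-/-IL10-/- cells and 0.82 ± 0.12 in IL10-/- cells (difference -1.20 ± 0.17, adjusted p 0.00644). The calls of these 3 differences held in all 8 fits without 1 array, whereas the decrease of Bnip3 itself was called in 1 of 4 (highest adjusted p 0.19).

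Of 20 genes of cholesterol synthesis, 6 rose and 3 fell (median 0.07), against 11 and 2 in IL10-/- cells (median 0.63). Without array 2 of either compared group, 2 rose and 3 fell. Idi1, an early enzyme of the pathway, rose by 1.28 ± 0.22 and the last enzyme Dhcr7 fell by 1.8-fold. Over all genes, 16.7% were called higher and 21.2% lower in p50-/-IL10-/- cells. The called respiratory chain subunits all fell by small amounts, with 0 of 31 higher, 16 lower and 15 not called (median -0.28), against 1 higher and 2 lower in IL10-/- cells (median -0.13). Without array 2 of the unstimulated cells 6 were called lower, and 9 without array 2 of the LPS+IL-10 cells. The largest of these decreases was in Sdhd, a subunit of complex II, at -0.49 ± 0.07. For comparison, the median change of the 3098 genes with the highest levels was -0.13 in p50-/-IL10-/- cells and -0.05 in IL10-/- cells. Lysosomal genes fell in 11 of 25 cases and rose in 1 (median -0.20), or 7 and 0 without array 2 of either group. Npc1, which exports cholesterol from lysosomes, read 8.98 and 8.67 after LPS+IL-10 and 10.03 and 10.10 at rest, lower by 2.37-fold, and Tfeb, the lysosomal transcription factor, fell by 1.74-fold.

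Cell cycle genes fell in 11 of 31 cases and rose in 5 (median -0.14), beside 21.2% lower and 16.7% higher among all genes. The decreases included the replication helicase gene Mcm7 (-1.58 ± 0.14, or -0.26 by its other probe set) and the kinase gene Cdk1 (-1.11 ± 0.14). Cdkn1a, the inhibitor p21, read 13.18 and 13.18 after LPS+IL-10, 13.30 and 13.28 after LPS alone and 10.24 and 10.59 at rest, higher by 2.76 ± 0.10. Among 14 metal and iron genes 6 rose and 2 fell (median 0.30). Cp, the ferroxidase ceruloplasmin, read 10.31 and 10.91 after LPS+IL-10, 8.97 and 8.48 after LPS alone and 8.15 and 7.73 at rest, higher than rest by 2.67 ± 0.31 (its 7 probe sets ranged from 0.18 to 3.18), whereas the exporter Slc40a1 fell. Apoptosis and survival genes rose in 10 of 22 cases and fell in 2 (median 0.34). They included Casp4, the caspase that senses LPS in the cytosol (2.33 ± 0.22), the death receptor Fas (2.26 ± 0.12), its inhibitor Cflar (1.82 ± 0.09) and Birc3, an inhibitor of apoptosis in NF-kB signalling (1.82 ± 0.09).

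Genes that responded in arrays outside the comparison were used to set it beside cells with p50. In IL10-/- cells given LPS+IL-10, 229 genes rose at least 2-fold over rest. In p50-/-IL10-/- cells given the same agents, 213 of these were called higher, 0 lower and 16 were not called, with a median change of 1.64. Over all genes, 16.7% were called higher and 21.2% lower in these cells, with a median change of 0.05. The genes that rose at least 2-fold in both genotypes numbered 183, which is 49.9% of the p50-/-IL10-/- set of 367 and 79.9% of the IL10-/- set. Of the 206 genes lowered in IL10-/- cells, 200 were called lower and 0 higher without p50, and the 171 shared genes made up 50% of the p50-/-IL10-/- set and 83.0% of the IL10-/- set. The log2 changes of the 2 genotypes come from different arrays, but their calls share the spread fitted over all groups. The called sets and their overlaps are therefore not fully independent.

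LPS alone in IL10-/- cells raised 328 genes (2.65%) and lowered 242 (1.95%) at least 2-fold. Of the 328, 302 were called higher in p50-/-IL10-/- cells given LPS+IL-10, 0 lower and 26 not, and the 267 shared genes were 72.8% of the 367 raised without p50 and 81.4% of the LPS set. Of the 242, 236 were called lower, and the 199 shared genes were 58.2% of the 342 lowered without p50 and 82.2% of the LPS set. These counts stand beside 16.7% higher and 21.2% lower among all genes in p50-/-IL10-/- cells given LPS+IL-10. The IL10-/- sets for LPS+IL-10 and for LPS alone share their unstimulated arrays. Calls of both sets also share the fitted spread with the p50-/-IL10-/- comparison.

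The 5 genes with the largest LPS increases in IL10-/- cells that were not called here were Marco, Ifit3, Slfn1, Oasl2 and Ifi209. Marco, a scavenger receptor for bacteria, read 7.47 and 7.66 after LPS+IL-10, 7.50 and 7.50 after LPS alone and 7.54 and 7.57 at rest in cells without p50. In IL10-/- cells it read 8.80 and 8.54 after LPS+IL-10, 9.96 and 10.59 after LPS alone and 7.65 and 6.45 at rest. Its groups without p50 overlapped, and the difference of the changes, -1.62 ± 0.44, was not called (adjusted p 0.0929). The other 4 are interferon-responsive. Ifit3 read 12.65 and 12.88 after LPS+IL-10 and 11.17 and 10.82 at rest, without overlap, and its change of 1.76 ± 0.79 carried the spread of the IL10-/- arrays. With only the 4 compared arrays fitted, the adjusted p values were 1.46e-05 for Ifit3, 0.000159 for Slfn1, 0.000654 for Oasl2 and 6.25e-05 for Ifi209. With the replicate block within each genotype they were 0.000285 for Ifit3 and 0.0233 for Oasl2.

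**Figure D4:**
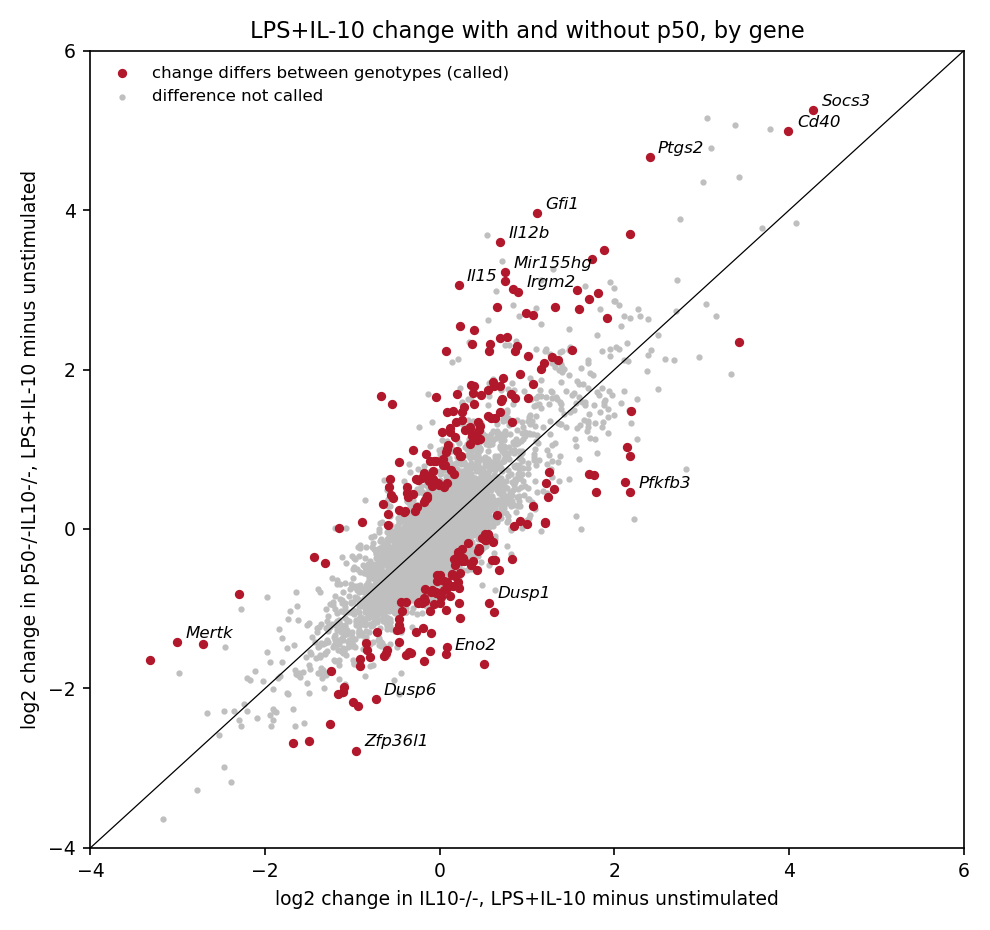
Log2 change of each gene (LPS+IL-10 minus unstimulated) in p50-/-IL10-/- cells (vertical axis) against IL10-/- cells (horizontal axis), with the line of equal change. Red points are the 272 genes whose change differed between the genotypes, such as Il12b (3.60 and 0.69) above the line and Zfp36l1 (-2.78 and -0.96) below it.

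The change differed between the genotypes for 272 genes, with 146 differences higher (1.18%) and 126 lower (1.02%) in p50-/-IL10-/- minus IL10-/- cells. With any 1 of the 8 arrays left out there were 79 to 172 calls, with the lowest count without array 2 of the p50-/-IL10-/- LPS+IL-10 cells, and array weights gave 528. There were 319 with the replicate number as a block, 488 with that block within each genotype and 643 with the numbers of the p50-/-IL10-/- LPS+IL-10 arrays crossed, which was chosen after seeing the data. Of the 146, 130 had risen with LPS+IL-10 in cells without p50, 6 had fallen and 10 were not called there. Of the 126, 96 had fallen, 14 had risen and 16 were not called. Most differences thus belonged to genes that moved further from rest, or in the opposite direction, without p50.

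Il15, which sustains NK and memory T cells, read 11.19 and 11.24 after LPS+IL-10 against 8.30 and 8.0 at rest without p50, and 8.25 and 8.46 against 8.10 and 8.18 in IL10-/- cells. The increase was 3.06 ± 0.12 in p50-/-IL10-/- cells and 0.22 ± 0.12 in IL10-/- cells, a difference of 2.85 ± 0.17 (adjusted p 9.58e-05). With LPS alone Il15 read 12.00 and 11.97 without p50 and 11.19 and 10.90 in IL10-/- cells, high in both. Il12b changed by 3.60 ± 0.21 without p50 and 0.69 ± 0.21 in IL10-/- cells (difference 2.91 ± 0.30, adjusted p 0.00205). It read 5.51 and 5.39 after LPS+IL-10 and 10.07 and 9.87 after LPS alone in IL10-/- cells. Gfi1 and Ptgs2, both dim at rest without p50, differed by 2.84 ± 0.27 and 2.26 ± 0.26. Med21, a subunit of the Mediator complex, differed by 2.17 ± 0.23. Gbp2b differed by 2.17 ± 0.30, but it lay at dim levels on the IL10-/- arrays (5.17 and 4.53 with LPS+IL-10, 5.05 and 4.52 at rest) and at 10.14 and 10.11 already at rest without p50. For Tsc22d1, a leucine zipper gene, the difference was 2.34 ± 0.19. It was 0.20 (adjusted p 0.415 from limma) without probe sets whose names mark probes shared between genes or between transcripts of a gene.

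Mir155hg, the host transcript of the microRNA miR-155, read 7.93 and 8.19 after LPS+IL-10, 9.35 and 8.91 after LPS alone and a dim 4.86 and 4.81 at rest without p50. In IL10-/- cells it read 5.61 and 5.06 after LPS+IL-10, 7.86 and 7.49 after LPS alone and 4.55 and 4.62 at rest. The increase was 3.22 ± 0.19 in p50-/-IL10-/- cells and 0.75 ± 0.19 in IL10-/- cells, and the difference was 2.48 ± 0.27 (adjusted p 0.00241). The array measured the host transcript and not the mature microRNA, whose main arm is printed for reference with its seed, bases 2 to 8, in capitals (RefSeq, GRCm38.p6, chr16:84714143-84714165, plus strand).
mmu-miR-155-5p: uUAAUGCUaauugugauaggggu
IL-10 is known to restrain miR-155 in macrophages given LPS. In these arrays LPS+IL-10 minus LPS was -1.07 ± 0.19 for the host transcript without p50.

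Lower differences included negative regulators of MAP kinases and glycolytic genes. Dusp1 changed by -0.92 ± 0.12 without p50 and 0.56 ± 0.12 in IL10-/- cells, a difference of -1.49 ± 0.17 (adjusted p 0.00244), with opposite signs that were each called. Dusp6 differed by -1.40 ± 0.18 and Zfp36l1 by -1.82 ± 0.27. Zfp36l1 read 7.54 and 8.08 after LPS+IL-10 and 10.81 and 10.37 at rest without p50, and 10.46 and 10.08 after LPS+IL-10 and 11.30 and 11.15 at rest in IL10-/- cells, so it fell in both. Pfkfb3, which sets the level of a glycolytic activator, read 9.33 and 9.34 after LPS+IL-10 and 8.79 and 8.95 at rest without p50, and 10.79 and 10.71 after LPS+IL-10 and 8.79 and 8.36 at rest in IL10-/- cells. It rose by 0.46 ± 0.15 in cells without p50, a call lost in each of the 4 fits without 1 array, and by 2.18 ± 0.15 in IL10-/- cells, a difference of -1.71 ± 0.21. Serpinb8 and Serpinb2, which are protease inhibitors of one family, differed by -1.56 ± 0.13 and -1.52 ± 0.11, and Serpinb2 was dim in cells without p50 (4.60 and 4.74 after LPS+IL-10). Incenp, of the chromosomal passenger complex, and Tor4a differed by -1.47 ± 0.20 and -1.42 ± 0.19, and another probe set of Incenp changed by -0.02 without p50. The 16 genes named by rank were chosen among those whose difference was called in all 8 fits without 1 array.

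**Figure D5:**
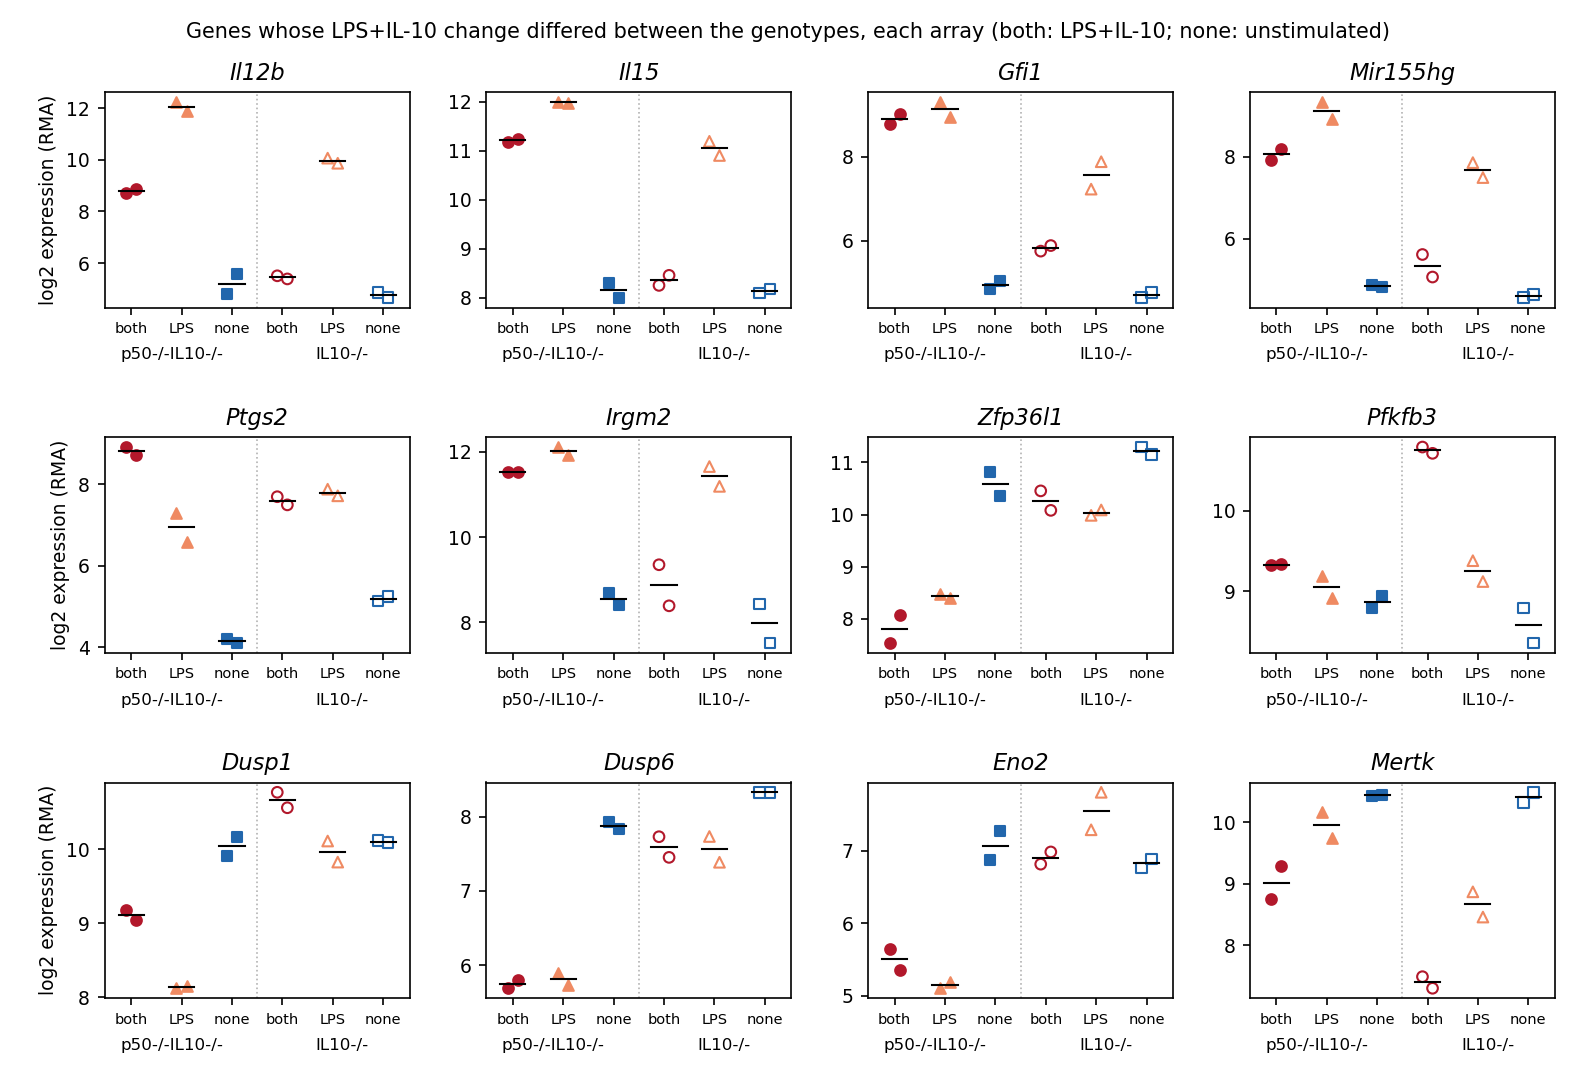
Log2 expression (vertical axis) on each array for 12 genes whose LPS+IL-10 change differed between p50-/-IL10-/- cells (filled, left) and IL10-/- cells (open, right), with bars at group means. Within each genotype the groups are LPS+IL-10 (both), LPS and unstimulated (none). With LPS+IL-10, Il15 and Mir155hg lie higher without p50 than in IL10-/- cells, and Mertk lies lowest with LPS+IL-10 in IL10-/- cells.

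Markers of other cell types were dim or moved little with LPS+IL-10. The counts below stand beside 16.7% higher and 21.2% lower among all genes. Over 9 T and NK cell markers limma called 0 (2 after quantile normalization), with a summed level, given as the mean of the list, of 6.42 and 6.37 on the LPS+IL-10 arrays and 6.29 and 6.29 on the unstimulated arrays. Neutrophil markers averaged 8.02 and 7.97 against 7.89 and 7.88 at rest (2 of 12 higher, 0 lower), dendritic cell markers 6.38 and 6.42 against 6.27 and 6.21 (3 of 7 higher), and stromal markers 6.33 and 6.33 against 6.06 and 6.02 (3 of 14 higher). Erythroid markers averaged 6.43 and 6.43 against 6.21 and 6.27 (2 of 7 higher), and mast cell and basophil markers 5.88 and 5.85 against 5.65 and 5.69 (2 of 11 higher). B cell markers averaged 6.49 and 6.45 against 6.57 and 6.69, with 3 of 9 higher and 1 lower, Blnk, an adaptor that macrophages also express (-2.20 ± 0.15). Macrophages themselves express some genes of these lists, such as Fn1 of the stromal list. Apart from Blnk and the receptor gene Csf3r (0.92 ± 0.12), the called markers changed by 0.56 or less, and each fit without 1 array called 0 stromal markers and at most 1 dendritic and 1 erythroid marker. The part of such cells in the results was not tested. In these bulk samples fewer cells of a type and less RNA per cell cannot be told apart.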

How the data were processed

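RNA of mouse bone marrow-derived macrophages was measured on 12 one-colour Affymetrix arrays, 2 in each of 6 groups formed by genotype and stimulus as the labels give them. The deposited values are log2 expression per probe set, and the authors made them with RMA, per the submitters' processing notes, which also name limma. No depth applies to arrays, and the 2 arrays per group limit the precision.

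Of 22690 probe sets, 64 controls, 1555 with no gene symbol and 691 with several were left out. The other 20380 had a single symbol (20351 matched RefSeq by gene ID) and gave 12393 genes, each represented by whichever of its probe sets averaged highest across the 12 arrays. Group means were fitted on all 12 arrays with limma 3.58.1 in R 4.3.3, with empirical Bayes moderation and Benjamini-Hochberg adjustment over the 12393 genes within each contrast. Calls required an adjusted p under 0.05. An exact permutation test of 2 against 2 arrays cannot give a two-sided p under 0.333, so none was used. The script was tested on simulated data.

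Genes named are the 12 largest increases and 12 largest decreases without overlap of the arrays that held in each of 4 fits without 1 array, the 8 largest differences between the genotypes in each direction that held in 8 such fits, the 3 largest called changes of each list with its best known members, and the 5 genes with the largest LPS increase in IL10-/- cells that were not called. The 32 gene lists (643 entries, 562 measured) and their members were chosen with earlier results of these data known. Counts and medians of the lists describe the listed genes, and no test of a list was run. The change from rest in IL10-/- cells, the difference between genotypes, LPS+IL-10 against LPS in p50-/-IL10-/- cells and LPS against rest in IL10-/- cells came from the same fit. Alternatives were the fitted arrays, array scaling, a filter on dim genes, the choice of probe set, the variance model, replicate blocks and leaving out each array. Promoter windows and the microRNA came from RefSeq (GRCm38.p6). Sums over other-cell markers are means of log2 values.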

Additional observations from a re-analysis of the deposited data

Results flagged for a closer look

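For 36 genes picked out by the rule for named genes or given above with the test of that difference, the change with LPS+IL-10 differed between p50-/-IL10-/- and IL10-/- cells in limma (adjusted p under 0.05), and other members of the gene lists also lie among the 272 genes called. Groups of 2 arrays are too small to look for single stray samples. Values are p50-/-IL10-/- minus IL10-/- differences of the log2 change.

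Higher without p50 among cytokines, receptors and signal regulators were Il12b at 2.91, Il15 at 2.85, Tlr3 at 1.5, Cd40 at 1.00, Mertk at 1.59, Nfkbie at 1.42, Birc3 at 0.75, Socs3 at 0.98 and Dusp2 at 1.18. Mertk, which clears apoptotic cells, fell in both genotypes, by 2.67-fold in p50-/-IL10-/- cells, and its positive difference stands for the smaller decrease there. Enzymes of prostaglandin synthesis and interferon-induced genes were higher too, with Ptgs2 at 2.26, Ptges at 1.61, Irgm2 at 2.08, Irf1 at 1.38 and Gbp2b at 2.17. Among transcription and cell cycle regulators, Gfi1 stood at 2.84, Mir155hg at 2.48, Tsc22d1 at 2.34, Med21 at 2.17, Junb at 1.16 and Cdkn1a at 1.17.

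Lower without p50 were the mRNA decay factor Zfp36l1 at -1.82, the phosphatases Dusp1 at -1.49 and Dusp6 at -1.40, and the kinase Mknk2 at -1.01. Among glycolysis and hypoxia genes Pfkfb3 stood at -1.71, Eno2 at -1.64, Pfkl at -0.81, Slc16a3 at -1.09 and Bnip3 at -1.20. The protease inhibitors Serpinb8 and Serpinb2 stood at -1.56 and -1.52, Tsc22d3 at -1.17, Sesn1 at -1.19, Incenp at -1.47, Tor4a at -1.42 and the Mincle gene Clec4e at -0.71. In fits without 1 array the calls of Mknk2 and Tlr3 were lost in all 8, that of Cd40 held in 1, those of Sesn1, Irgm2, Dusp2, Junb and Birc3 in 2, that of Mertk in 3 and that of Clec4e in 4. Those of Tsc22d3 and Ptges held in 6, that of Eno2 in 7, and the calls of the other 23 genes in all 8.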

How the results depend on the processing

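With 1 array left out, the 4703 calls of LPS+IL-10 against rest in p50-/-IL10-/- cells became 2909 to 3330, the 2411 in IL10-/- cells 1469 to 1910, the 272 genotype differences 79 to 172, the 814 calls against LPS alone 270 to 479, and the 3078 calls of LPS against rest in IL10-/- cells 1950 to 3551. A group then rests on a lone array that is assumed to vary like the others. With only the compared arrays fitted, the genotype differences numbered 437 and the LPS calls 1914, and array weights gave 528 genotype differences. The other alternatives left these 5 counts within 1.5 times, except the replicate blocks named next. The replicate numbers were not taken as pairing the samples. Deviations of the p50-/-IL10-/- LPS+IL-10 arrays correlated at -0.49 to -0.17 with those of the same number in the other 5 groups. All 10 pairs among these 5 groups gave 0.17 to 0.60. The labels do not say what the numbers mark, and the reason for the opposite signs was not tested. With the replicate number as a block the comparison with rest had 4768 calls and the genotype difference 319, and with a replicate block within genotype 4885 and 488. A replicate block with the numbers of the p50-/-IL10-/- LPS+IL-10 arrays crossed, chosen after seeing the data, gave 5232 and 643.

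Of 416 values of named genes with 1 array left out, 365 kept direction and call, 49 were no longer called and 2 reversed, both for Marco, whose change near 0 went to -0.007 without array 1 of the unstimulated cells and to -0.092 without array 2 of the LPS+IL-10 cells (0.104 at the highest). Under the other alternatives 1093 of 1129 kept direction and call, 16 lost the call and 20 gained it. The 16 genotype differences named by rank were chosen to hold with any 1 array left out, so their 128 of 128 such values follow from the choice. Under the other alternatives 173 of 174 values held, the exception being Tsc22d1. The cause was not tested. Counts for lists stayed within 1.5 times in 102 of 128 values with 1 array left out and 330 of 352 others. Genes whose groups lie near the bottom of the scale have changes that the arrays measure with least precision.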
